A study of Homo sapiens with 18 samples.

Results

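The RNA of HEK-293E cells, a line derived from human embryonic kidney, was compared between 1 h and 4 h of feeding while the kinase mTOR was inhibited by Torin1. The 2 groups were F1T (Torin1, 1 h of feeding) and F4T (Torin1, 4 h of feeding), with 3 libraries each, so 6 of the 18 libraries of the series carry the comparison, and every gene that passed a filter on low counts was tested. Before feeding, all cells had been kept overnight in medium with 0.1% serum, and feeding was the return to growth medium with 10% serum. Libraries of starved cells with Torin1 (ST) and of starved, 1 h fed and 4 h fed cells without it (S, F1 and F4), again 3 each, are used as reference points. The sources used here do not give the dose of Torin1 or the time of its addition. They do not say either whether the 3 libraries of a group were grown separately, and p-values then cover only the spread among these libraries, which may be technical.

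mTOR is a kinase that senses amino acids and growth factors and, when active, promotes protein synthesis, ribosome assembly and lipid synthesis. Torin1 blocks the ATP site of mTOR and thereby acts on both of the complexes the kinase forms. Serum also acts through routes beside mTOR: the ERK cascade and the serum response factor SRF switch on immediate early genes within minutes, whose short-lived transcripts then decay, and serum carries lysophospholipids, BMPs and TGF-beta that act on the cytoskeleton and on SMAD proteins. The comparison of 4 h with 1 h asks how such early responses decay or grow while mTOR is inhibited.

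Expression is given as CPM, counts divided by library size after TMM scaling, and a gene is called changed when its edgeR adjusted p is under 0.05. Depth was 11482792 to 13690035 counts in the F1T libraries and 12258485 to 13352511 in the F4T libraries, and 3 counts corresponded to 0.214 to 0.257 CPM. Mitochondrially encoded transcripts took 3.07% ± 0.647 of counts in F1T and 3.03% ± 0.379 in F4T (SD, n = 3). The line markers VIM, LIN28B, NEFM and KRT18 and the kidney progenitor genes SIX2 and SALL1 were present in both groups, while the kidney gene PAX8 had no counts in either. One library stood apart in fibroblast collagens: COL1A2 had 73 counts and COL3A1 72 counts in F4T replicate 2, against 1 to 8 and 3 to 9 counts in the other 5 libraries. It also held more of the fibroblast genes DCN (16 counts, against 0 to 1) and LUM (10, against 0 to 3). Markers of other cell types were higher there too: CD74 (24, against 2 to 8), MUC1 (43, against 11 to 21) and PECAM1 (9, against 0 to 3). CD14, CD68, KDR and EPCAM were not higher in it. The summed level of the 8 fibroblast markers was 38.3 CPM in that library, 16.96 and 18.2 CPM in the other F4T libraries and 16.5 to 19.3 CPM in F1T, with FAP at 0 in all 6. Counts that this library moves are given without it.

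Between 1 h and 4 h of feeding with Torin1, 241 of 16414 genes were called (1.47%), 94 higher (0.573%) and 147 lower (0.896%) at 4 h. The median log2 change was 0.75 among the higher and −0.50 among the lower genes, and 25 higher and 14 lower genes changed at least 2-fold. The values of the 2 groups did not overlap for any of the 241 called genes, as for 24.3% of all genes tested. In a bulk measurement fewer cells expressing a gene and less of its RNA per cell cannot be told apart. The direction of the split rested on scaling: higher genes made up 39.0% of calls with TMM and 61.2% of 188 calls with total counts, which moved the median of all genes from −0.02 to 0.03. The count was 99 without F4T replicate 2, and 101, 129, 118 and 104 without F1T replicates 1, 2 and 3 and F4T replicate 3.

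Among called genes with a mean of 5 CPM or more, the 5 largest falls were those of EGR3, FOSB, EGR1, DUSP5 and DUSP8, transcription factors and phosphatases of the kind that cells switch on first when serum is added. Of 26 immediate early transcription factors, 8 fell (30.8%, against 0.896% of all genes), 1 rose (0.573% of all genes) and 17 were not called. Their median log2 change was −0.48, against −0.02 over all genes tested. The 8 were EGR1, EGR2, EGR3, FOSB, FOSL2, JUND, KLF6 and ATF3. This count was 3 without F4T replicate 2, 4 without F4T replicate 3 or F1T replicate 2, and 5 without F1T replicate 3. The calls of EGR3, FOSB and JUND held whichever of the 6 libraries was left out.

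EGR3, a zinc finger transcription factor of the early growth response family, was at 10.3, 15.9 and 22.4 CPM in the F1T libraries and at 0.997, 0.305 and 0.728 CPM in the F4T libraries. Every 4 h library lay far below every 1 h library and close to the mean of starved cells with Torin1, 0.529 CPM. The fall was 23.5-fold (log2 change −4.55, SE 0.35, adjusted p = 8.17e-10).

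FOSB, a subunit of the AP-1 transcription factor, was at 18.7, 33.3 and 37.0 CPM at 1 h and at 5.20, 3.58 and 3.42 CPM at 4 h. The groups did not overlap, and the starved mean was 2.97 CPM. The fall was 7.28-fold (−2.86, SE 0.30, adjusted p = 1.27e-05).

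EGR1, the best known member of its family and a direct target of SRF, was at 18.99, 23.5 and 30.4 CPM at 1 h and at 5.77, 3.66 and 5.17 CPM at 4 h, with a starved mean of 3.22 CPM. The fall was 4.99-fold (−2.32, SE 0.38, adjusted p = 0.00902), and its call was lost without F4T replicate 2, the library with the collagen counts (adjusted p = 0.0582). The EGR1 promoter is shown because it holds the binding motif of SRF, the CArG box, in 2 copies. It was taken from RefSeq (GRCh38.p14, chr5:138465229-138465528, plus strand, from 250 bases before to 50 after the start of the gene), 5′ to 3′, with the CArG boxes in capitals.
EGR1: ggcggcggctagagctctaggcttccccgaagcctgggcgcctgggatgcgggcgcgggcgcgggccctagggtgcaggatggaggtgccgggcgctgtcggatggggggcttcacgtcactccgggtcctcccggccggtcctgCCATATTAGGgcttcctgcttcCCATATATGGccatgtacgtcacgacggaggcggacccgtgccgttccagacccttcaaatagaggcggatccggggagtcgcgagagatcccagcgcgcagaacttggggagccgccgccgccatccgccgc

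The boxes begin 105 and 83 bases before the start. Of 35116 promoters in the table, 1.29% held a CArG box on either strand, and of the 7 falling immediate early transcription factors with a promoter there, 1 did (EGR1). A match is a run of letters, not evidence of binding.

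The other 5 factors changed less. FOSL2, an AP-1 subunit, was at 12.1, 11.7 and 11.1 CPM at 1 h and at 7.12, 5.11 and 4.95 CPM at 4 h (−1.02, SE 0.23, adjusted p = 0.0150). The stress-responsive repressor ATF3 was at 48.2, 62.9 and 74.4 CPM at 1 h and at 31.9, 25.9 and 27.0 CPM at 4 h (−1.13, SE 0.23, adjusted p = 0.0257). JUND, the most constantly expressed of the JUN proteins, fell by 0.74 (SE 0.11, adjusted p = 0.000325) on the log2 scale and KLF6 by 0.46 (SE 0.12, adjusted p = 0.0367). EGR2 fell by 1.89 (SE 0.50, adjusted p = 0.0479) from a mean of 1.75 CPM, a call that was lost with any of the 6 libraries left out. Those of FOSL2, ATF3 and KLF6 were lost with 4 of the 6.

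Several well-known members of the list did not pass. FOS stood at 5.47, 5.38 and 8.63 CPM at 1 h and 4.20, 2.44 and 2.04 CPM at 4 h (−1.17, SE 0.35, adjusted p = 0.0941), so its values did not overlap although the change was not called. NR4A1, a nuclear receptor, was at 27.2 ± 4.75 and 15.8 ± 1.72 CPM (SD, n = 3; adjusted p = 0.0519), and JUNB at 15.9 ± 1.02 and 12.8 ± 1.55 CPM (adjusted p = 0.412). MYC, which drives growth and ribosome assembly, was at 167 ± 13.8 CPM at 1 h and 131 ± 9.95 CPM at 4 h (−0.35, SE 0.11, adjusted p = 0.102).

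KLF10 went the other way. This repressor, an early target of TGF-beta, was at 47.6, 34.8 and 38.3 CPM at 1 h and at 87.4, 76.6 and 72.8 CPM at 4 h. All 4 h libraries lay above all 1 h libraries, a rise of 1.96-fold (0.97, SE 0.17, adjusted p = 0.00499). On a separate list of 25 other immediate early genes, 3 fell (12%, against 0.896% of all genes) and 0 rose. The other 22 were not called, and the list median was 0.04. The 3 were CCN1, a secreted matrix protein, IER2 and the survival protein MCL1. CCN1 was at 18.3, 31.5 and 37.7 CPM at 1 h and at 16.02, 15.5 and 14.99 CPM at 4 h, so the lowest 1 h library lay just above the 4 h libraries (−0.91, SE 0.20, adjusted p = 0.0191). The calls of these 3 genes were each lost with 5 of the 6 libraries left out.

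**Figure D1:**
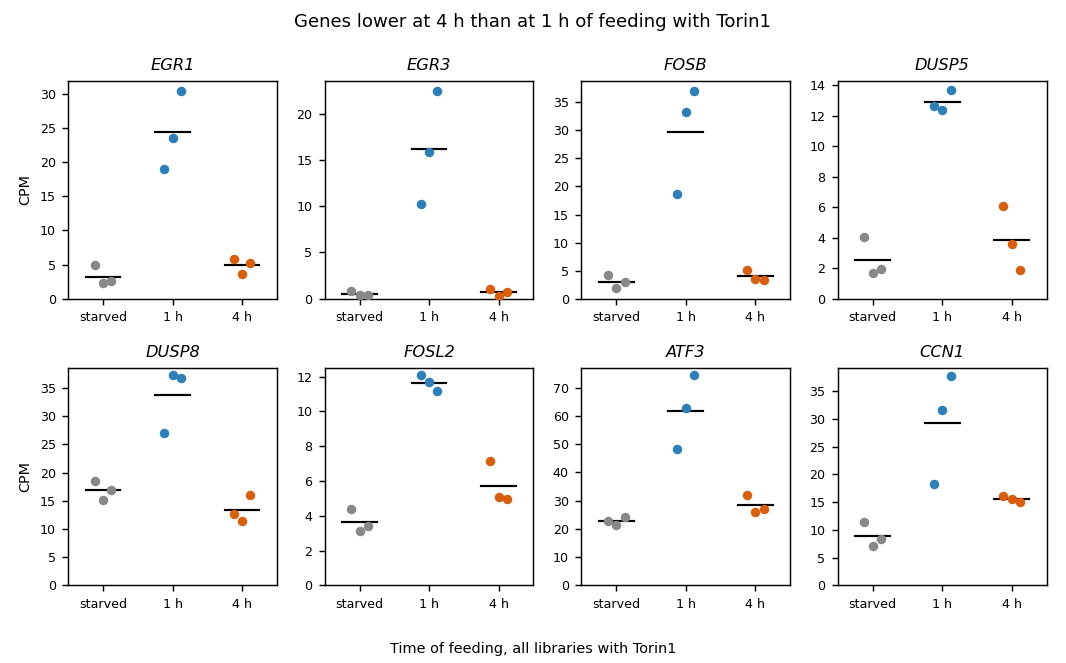
CPM (vertical axis, from 0) of 8 genes that fell, with starved cells at left and 1 h and 4 h of feeding beside them, all with Torin1; points are single libraries and lines are means of 3. EGR3 drops from a mean of 16.2 to 0.676 CPM and FOSB from 29.7 to 4.07 CPM, and in each panel the 4 h libraries lie below all 1 h libraries.

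Dual-specificity phosphatases remove the activating phosphates from MAP kinases and are themselves induced by them, and several fell. They were followed in a list of ERK feedback genes that is wider than its name, since it also holds DUSP8, which prefers other MAP kinases. Of its 18 genes tested, 4 fell (DUSP1, DUSP5, DUSP8 and DUSP16, 22.2%, against 0.896% of all genes). Of the rest, 1 rose (ETV5, 5.56%, against 0.573%) and 13 were not called, with a median of −0.10 over the list. The 4 falls thus do not measure ERK feedback alone. The count of 4 was 2 without F1T replicate 2 or F4T replicate 3, and 3 without F4T replicate 2. DUSP5, which acts on ERK in the nucleus, was at 12.7, 12.4 and 13.7 CPM at 1 h and at 6.05, 3.58 and 1.89 CPM at 4 h. Its 4 h libraries spread widely but all lay below the 1 h libraries (−1.74, SE 0.29, adjusted p = 0.00126). DUSP8, which prefers JNK and p38, was at 26.9, 37.3 and 36.8 CPM at 1 h and at 12.7, 11.4 and 16.1 CPM at 4 h (−1.33, SE 0.17, adjusted p = 2.30e-05). Its 4 h mean, 13.4 CPM, was below the starved mean of 16.9 CPM, a difference that was not called (adjusted p = 0.436).

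DUSP6, the phosphatase most used as a reporter of ERK, was scarce: 0.684, 0.841 and 0.647 CPM at 1 h and 0, 0.914 and 1.02 CPM at 4 h, so no change could be told (adjusted p = 0.950). SPRY2, a receptor tyrosine kinase inhibitor, was at 22.8 ± 2.14 and 23.6 ± 2.54 CPM (SD, n = 3; adjusted p = 0.908). ETV5, an ETS factor, rose from 0.763 ± 0.379 to 2.32 ± 0.487 CPM (1.61, SE 0.39, adjusted p = 0.0247), a call lost with 4 of the 6 libraries left out and with limma-voom.

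TXNIP returned toward its starved level. TXNIP is an arrestin-like protein that holds back glucose uptake and whose transcription follows sugar phosphates. It was at 16.5, 11.3 and 10.4 CPM at 1 h and at 62.6, 60.5 and 58.7 CPM at 4 h, beside 88.6 ± 12.3 CPM in starved cells with Torin1 (SD, n = 3). The 4 h libraries lay close together and far above the 1 h libraries. The rise was 4.78-fold (2.26, SE 0.16, adjusted p = 6.67e-10), and the 4 h level was below the starved level (−0.55, adjusted p = 0.0341, in a comparison that called 1.8% of genes). ARRDC3, an arrestin-domain protein that guides receptors to degradation, rose with it, from 5.73, 3.61 and 3.02 to 12.6, 10.7 and 10.3 CPM (1.45, SE 0.24, adjusted p = 0.000557). ARRDC4, the closest relative of TXNIP in regulation by glucose, was at 23.0 ± 2.72 and 26.6 ± 1.04 CPM, and its change was not called (0.21, SE 0.12, adjusted p = 0.439). Of the 8 genes of this list, 2 rose (25%, against 0.573% of all genes) and 0 fell. The other 6 were not called, and the list median was 0.14.

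FOXO factors, which the kinase AKT keeps out of the nucleus, were followed through 27 of their targets. Of these 1 rose (3.7%, against 0.573% of all genes), 0 fell and 26 were not called (median −0.01). The 1 was FOXO1 itself, at 25.8 ± 2.60 and 36.0 ± 1.23 CPM (0.48, SE 0.12, adjusted p = 0.0330), a call lost with 5 of the 6 libraries left out. The cyclin CCNG2, another target, was at 34.6 ± 0.399 and 42.9 ± 4.37 CPM (adjusted p = 0.110).

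The list with the largest share of called genes, among those with 5 or more tested, was that of the ID and BMP feedback genes. Of 12 genes, 7 rose (58.3%, against 0.573% of all genes), 0 fell and 5 were not called, and all 12 fitted changes were positive, with a median of 0.78. The 7 were the inhibitory SMAD6 and SMAD7, SMAD9, the helix-loop-helix inhibitors ID2, ID3 and ID4, and HEY1. Leaving out a library gave 5 to 7. SMAD7, which blocks BMP and TGF-beta receptors, was at 15.8, 13.9 and 15.6 CPM at 1 h and at 42.0, 36.7 and 39.4 CPM at 4 h (1.38, SE 0.14, adjusted p = 1.67e-07). The 1 h level was near that of starved cells, 12.9 ± 2.86 CPM.

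SMAD6, its BMP-specific relative, was at 18.2, 18.7 and 19.3 CPM at 1 h and at 43.4, 38.6 and 41.8 CPM at 4 h (1.14, SE 0.14, adjusted p = 1.16e-05). ID3 was at 41.7, 46.2 and 39.8 CPM at 1 h and at 88.6, 79.6 and 89.0 CPM at 4 h (1.01, SE 0.13, adjusted p = 1.56e-05), from a starved mean of 23.9 CPM. ID2 rose by 0.72 (SE 0.10) and SMAD9 by 0.96 (SE 0.12). ID1 differed from ID3: it had reached 21.4 ± 4.30 CPM at 1 h from 4.27 ± 1.19 CPM in starved cells and stood at 23.8 ± 2.10 CPM at 4 h, a change that was not called (0.15, SE 0.18, adjusted p = 0.755).

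Of 12 TGF-beta targets tested, 2 rose (16.7%, against 0.573% of all genes), 0 fell and 10 were not called, with a median of 0.14. SKIL, a corepressor that limits SMAD signalling, was at 19.6, 17.7 and 18.7 CPM at 1 h and at 52.4, 50.4 and 39.9 CPM at 4 h (1.35, SE 0.14, adjusted p = 4.34e-07). PMEPA1, a feedback inhibitor, rose from 6.18 ± 0.0971 to 10.8 ± 1.16 CPM (0.81, SE 0.19, adjusted p = 0.0223), a call lost with any of the 6 libraries left out.

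**Figure D2:**
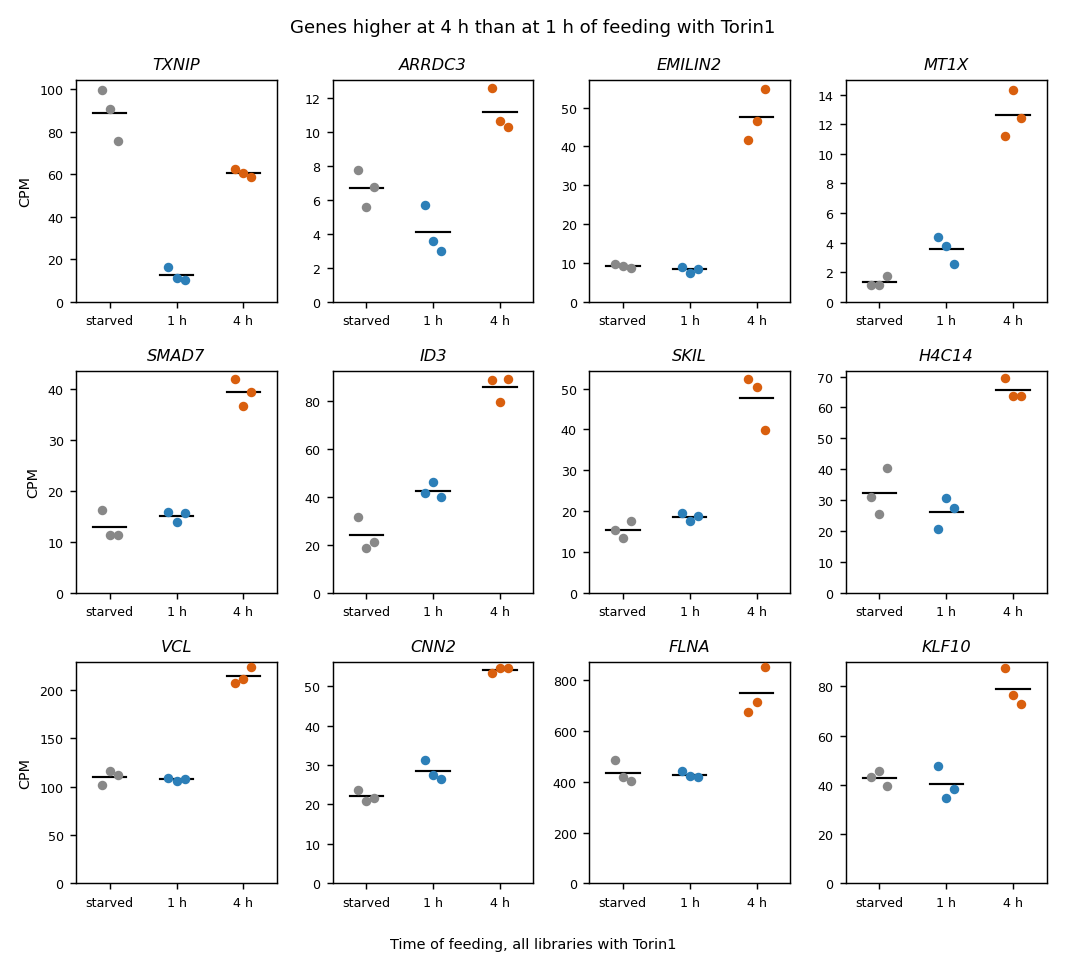
CPM (vertical axis, from 0) of 12 genes that rose, with starved cells at left and 1 h and 4 h of feeding beside them, all with Torin1; points are single libraries and lines are means of 3. TXNIP is high in starved cells, low at 1 h and at a mean of 60.6 CPM at 4 h, whereas VCL and FLNA have like means in starved and 1 h fed cells and higher ones at 4 h.

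Several genes of the actin cytoskeleton rose. Of 25 targets of SRF and YAP and actin genes tested, 7 rose (28%, against 0.573% of all genes), 1 fell (CCN1, above) and 17 were not called, with a median of 0.22. The 7 were VCL, FLNA, CNN2, TPM1, ACTG1, ACTB and ZYX, and leaving out a library gave 4 or 5, with 4 without F1T replicate 1 or 2 or F4T replicate 2 or 3. VCL, encoding vinculin, which links integrins to actin, was at 109, 106 and 108 CPM at 1 h and at 207, 211 and 223 CPM at 4 h. The libraries of each group lay close together, and the rise was 1.98-fold (0.99, SE 0.08, adjusted p = 7.33e-10). The starved mean, 110 CPM, was at the 1 h level.

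FLNA, the actin crosslinker filamin A, was at 444, 424 and 418 CPM at 1 h and at 677, 716 and 851 CPM at 4 h (0.80, SE 0.09, adjusted p = 5.14e-07). CNN2, the actin-binding calponin 2, was at 31.3, 27.4 and 26.5 CPM at 1 h and at 53.5, 54.6 and 54.5 CPM at 4 h (0.93, SE 0.11, adjusted p = 2.74e-06). The tropomyosin gene TPM1 rose by 0.60 (SE 0.11, adjusted p = 0.00138), and ZYX, ACTB and ACTG1 by 0.43, 0.33 and 0.29. PDLIM7, a scaffold of the actin cytoskeleton outside the list, was at 40.5, 42.1 and 44.4 CPM at 1 h and at 89.0, 91.9 and 97.1 CPM at 4 h (1.13, SE 0.11, adjusted p = 5.18e-08).

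The promoters of CNN2 and FLNA are shown since their CArG boxes lie at distances from the start close to those in EGR1, a gene that fell over the same hours. They are from RefSeq (GRCh38.p14; CNN2 chr19:1026358-1026657, plus strand; FLNA chrX:154374585-154374884, minus strand), 5′ to 3′ along the gene with the box in capitals.
CNN2: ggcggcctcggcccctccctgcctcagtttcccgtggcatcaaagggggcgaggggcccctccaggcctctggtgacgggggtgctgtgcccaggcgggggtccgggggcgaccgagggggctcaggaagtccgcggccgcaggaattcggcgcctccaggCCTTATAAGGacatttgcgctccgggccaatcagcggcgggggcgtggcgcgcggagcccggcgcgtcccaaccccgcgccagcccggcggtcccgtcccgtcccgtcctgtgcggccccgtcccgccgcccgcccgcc
FLNA: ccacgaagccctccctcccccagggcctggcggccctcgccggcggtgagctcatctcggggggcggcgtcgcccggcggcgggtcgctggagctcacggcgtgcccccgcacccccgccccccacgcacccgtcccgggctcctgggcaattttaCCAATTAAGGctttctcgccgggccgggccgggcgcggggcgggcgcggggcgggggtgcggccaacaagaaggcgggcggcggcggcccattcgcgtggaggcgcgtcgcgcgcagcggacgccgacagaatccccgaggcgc

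The boxes begin 89 bases before the start in CNN2 and 94 in FLNA. Of the 6 rising cytoskeletal genes with a promoter in the table, 3 held a CArG box (ACTG1, CNN2 and FLNA), against 1.29% of all promoters. The list was drawn partly from known targets of SRF, which binds this box, so this share describes how its genes were chosen. VCL held none in this window.

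Replication-dependent histone transcripts normally peak in S phase and lack a poly(A) tail. Of 58 core histones listed, 28 passed the filter on low counts, and of these 4 rose (H4C14, H4C8, H2AC6 and H2BC5; 14.3%, against 0.573% of all genes), 0 fell and 24 were not called. The fitted change was positive in 26 of 28, with a median of 0.68 against −0.02 over all genes. H4C14 was at 20.5, 30.8 and 27.3 CPM at 1 h and at 69.4, 63.7 and 63.8 CPM at 4 h, without overlap (1.32, SE 0.21, adjusted p = 0.00391). H2AC6 was at 17.9 ± 0.663 and 30.5 ± 2.40 CPM (SD, n = 3; 0.77, SE 0.13, adjusted p = 0.00113). Starved cells with Torin1 were at 32.3 ± 7.48 CPM for H4C14 and 2.97 ± 0.223 CPM for H4C8. Against them the 4 h level was called higher for H4C14 (adjusted p = 0.0191), H2AC6 (adjusted p = 2.19e-06) and H2BC5 (adjusted p = 0.0113). It was not called for H4C8 (adjusted p = 0.653). The call of H4C8 was lost with any library left out and that of H2BC5 without F1T replicate 1, so that the count was 2 without F1T replicate 1 and 3 without F4T replicate 2. H4C14 has a near-identical copy, H4C15 (1.04, adjusted p = 0.144), and reads may be split between such copies. No linker histone was called among 4 tested by edgeR, DESeq2 or limma-voom, with 1 at an unadjusted p under 0.05 (H1-4 was at 3.39 ± 0.610 and 4.52 ± 1.04 CPM). Of 29 genes of DNA replication, 1 fell (GINS1, 3.45%, against 0.896% of all genes) and 28 were not called, with a median of −0.11.

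Metallothioneins are small proteins that bind zinc and copper and are induced by free zinc through the factor MTF1. Of 11 listed 3 passed the filter, and of these 2 rose (66.7%, against 0.573% of all genes) and 1 (MT1F) was not called. MT1X was at 4.36, 3.78 and 2.59 CPM at 1 h and at 11.2, 14.3 and 12.4 CPM at 4 h (1.83, SE 0.21, adjusted p = 1.21e-06), above 1.33 ± 0.368 CPM in starved cells. MT2A was at 15.3, 11.6 and 9.64 CPM at 1 h and at 19.9, 24.8 and 22.6 CPM at 4 h (0.89, SE 0.15, adjusted p = 0.00112). Both are members of a family with near-identical sequences, so their counts may hold reads of each other. The promoter of MT1X (RefSeq, GRCh38.p14, chr16:56682220-56682519, plus strand) is shown for its 4 copies of the core of the metal response element, TGCNCNC on either strand, in capitals.
MT1X: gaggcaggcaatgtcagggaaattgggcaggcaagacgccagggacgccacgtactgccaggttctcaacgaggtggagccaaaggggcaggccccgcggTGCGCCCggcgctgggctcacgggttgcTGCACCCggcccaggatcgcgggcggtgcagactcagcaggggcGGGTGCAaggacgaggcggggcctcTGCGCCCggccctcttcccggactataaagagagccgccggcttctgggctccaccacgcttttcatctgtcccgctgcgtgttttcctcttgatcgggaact

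They begin 150, 122, 78 and 53 bases before the start, and this window of MT1X held no CArG box. The core is short and was found in 55.9% of all 35116 promoters, and in both of the rising metallothioneins.

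A zinc importer and the iron receptor fell. The zinc importer SLC39A10 was at 135, 107 and 103 CPM at 1 h and at 72.5, 60.8 and 59.4 CPM at 4 h (−0.84, SE 0.17, adjusted p = 0.0215). It was the 1 gene called of 20 of zinc transport (5%, against 0.896% of all genes), and its call was lost without F1T replicate 1 or F4T replicate 2 or 3. TFRC, the transferrin receptor that takes up iron, was at 142, 99.5 and 101 CPM at 1 h and at 70.0, 51.1 and 53.3 CPM at 4 h (−0.97, SE 0.13, adjusted p = 0.000373). It was the 1 gene called of 16 iron genes (6.25%, against 0.896% of all genes). For both genes replicate 1 of each group was the highest, and no values overlapped. With a fit of only the groups compared, the call of TFRC was lost (adjusted p = 0.0652).

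Ribosome assembly genes, many of which depend on mTOR and MYC, were compared next. Of 46 tested, 6 fell (UTP18, LYAR, NOP58, WDR43, WDR12 and GNL3; 13%, against 0.896% of all genes), 1 rose (UBTF; 2.17%, against 0.573%) and 39 were not called, with a median of −0.14. UTP18, a part of the small subunit processome, was at 95.2, 95.4 and 94.6 CPM at 1 h and at 73.8, 62.5 and 61.1 CPM at 4 h (−0.53, SE 0.08, adjusted p = 0.000275). The count of 6 was 1 without F4T replicate 3, 2 without F4T replicate 2 or F1T replicate 1, and 3 without F1T replicate 3. UBTF, the factor that opens ribosomal DNA for RNA polymerase I, was at 168, 179 and 166 CPM at 1 h and at 242, 256 and 264 CPM at 4 h (0.57, SE 0.08, adjusted p = 0.000111). None of 79 cytosolic ribosomal protein genes was called by edgeR, DESeq2 or limma-voom, 0 had an unadjusted p under 0.05, and their fitted changes lay between −0.15 and 0.12.

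**Figure D3:**
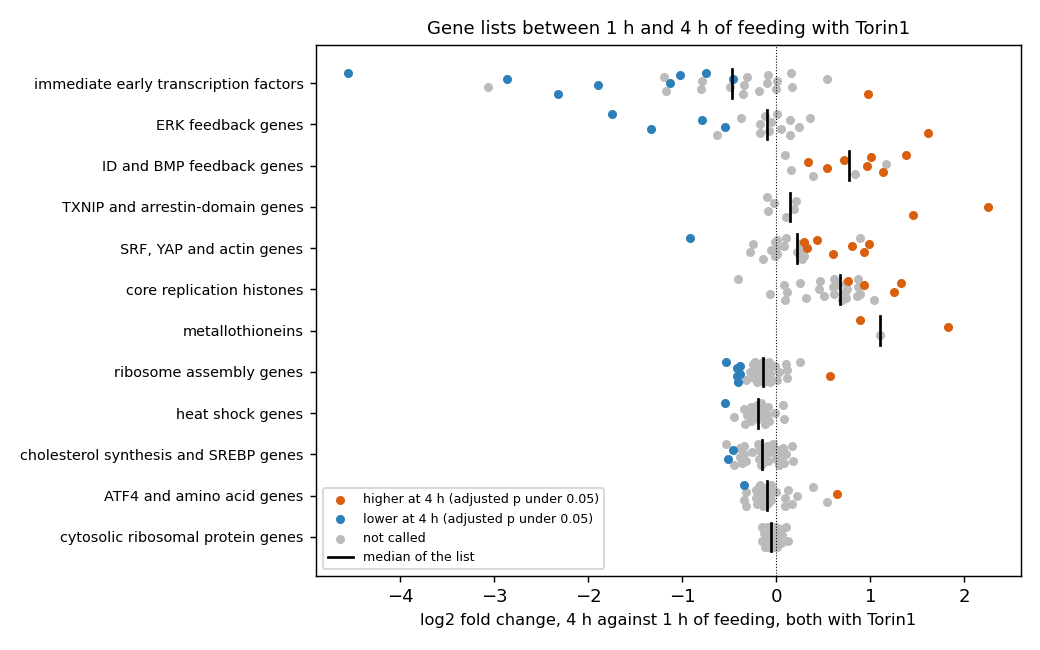
Log2 change from 1 h to 4 h of feeding with Torin1 (horizontal axis) for the genes of 12 lists; points are genes, coloured by their call, and bars are list medians. The ID and BMP feedback genes lie at positive values with a median of 0.78, the immediate early transcription factors spread down to −4.55, and the ribosomal protein genes cluster at 0.

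Of 32 cholesterol synthesis and SREBP genes, 2 fell (6.25%, against 0.896% of all genes), SQLE (−0.46, SE 0.10, adjusted p = 0.0126) and ELOVL6 (−0.52, SE 0.12, adjusted p = 0.0228), and 30 were not called, with a median of −0.15. Both calls were lost with some libraries left out, 3 of the 6 for SQLE and 5 for ELOVL6. HMGCS1 was at 110 ± 19.6 and 75.9 ± 15.4 CPM (SD, n = 3; adjusted p = 0.0623) with overlapping values. Of 33 ATF4 and amino acid genes, the transporter SLC1A4 rose (0.64, SE 0.14), SLC38A1 fell (−0.35, SE 0.09) and 31 were not called. Each was 3.03% of the list, against 0.573% higher and 0.896% lower over all genes. The call of SLC1A4 was lost with 3 of the 6 libraries left out and that of SLC38A1 with any of them. ATF4 itself was at 468 ± 9.63 and 403 ± 3.98 CPM (adjusted p = 0.101). The glutamate transporters SLC1A1 and SLC1A3, outside the lists, fell by 1.07 (SE 0.21, adjusted p = 0.00360) and 1.14 (SE 0.20, adjusted p = 0.00415), the latter from 16.99 ± 1.68 to 7.69 ± 0.546 CPM and with the call lost under limma-voom (adjusted p = 0.0558).

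Among 21 heat shock genes 1 fell (HSPA4L, −0.54, SE 0.10, adjusted p = 0.00179), with a median of −0.19, and among 19 genes of the unfolded protein response 1 fell (XBP1, −0.39, SE 0.09, with the call lost with 5 of the 6 libraries left out). These were 4.76% and 5.26% of their lists, against 0.896% lower over all genes. No gene was called by edgeR among 27 of glycolysis, 32 of lysosomes, 28 of mitosis, 20 of the clock, 15 targets of NRF2 or 13 mitochondrially encoded proteins. Of these 135 genes 4 were higher (2.96%) and 18 lower (13.3%) at an unadjusted p under 0.05, against 5.22% and 8.93% of all genes tested, and DESeq2 called 3, all lower, and limma-voom 0. Of the 18 growth arrest and cell cycle entry genes, 3 fell (16.7%, against 0.896% of all genes) and 1 rose (5.56%, against 0.573%). The other 14 were not called, and the list median was −0.02. The D-type cyclins CCND2 and CCND1 fell and CCND3 was not called, with CCND2 going from 38.7, 35.9 and 32.3 to 19.4, 21.7 and 23.3 CPM (−0.73, SE 0.10, adjusted p = 7.80e-05). CCND1 fell by 0.52 (SE 0.11, adjusted p = 0.0106). The CDK inhibitor CDKN2C rose by 0.46 (SE 0.09, adjusted p = 0.00592), a call lost without F1T replicate 1, and the MYC antagonist MXI1 fell by 0.48 (SE 0.12). The calls of CCND1 and MXI1 were lost with 4 and 5 of the 6 libraries left out.

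EMILIN2 had the largest rise of the called genes with a mean of 5 CPM or more. This extracellular matrix glycoprotein was at 8.98, 7.48 and 8.56 CPM at 1 h and at 41.6, 46.6 and 54.7 CPM at 4 h, a rise of 5.70-fold (2.51, SE 0.17, adjusted p = 3.34e-11), with a starved mean of 9.19 CPM. SAMD11 was at 53.6 ± 0.531 and 116 ± 15.7 CPM (SD, n = 3; 1.11, SE 0.12, adjusted p = 5.84e-07). The growth factor receptor FGFR3 was at 41.0, 50.01 and 54.0 CPM at 1 h and at 91.4, 111 and 134 CPM at 4 h (1.21, SE 0.20, adjusted p = 0.00481). RELB, a subunit of NF-kappa-B, was at 4.79, 4.12 and 2.66 CPM at 1 h and at 9.61, 6.25 and 9.46 CPM at 4 h (1.14, SE 0.22, adjusted p = 0.00372). It was the 1 gene called of 15 of that pathway (6.67%, against 0.573% of all genes), with the call lost without F1T replicate 3. The stem cell receptor LGR5 fell from 10.0 ± 0.716 to 5.46 ± 0.759 CPM (−0.88, SE 0.22, adjusted p = 0.0363), a call lost with any library left out. The line marker LIN28B, which blocks let-7 miRNA maturation, fell by 0.53 (SE 0.09, adjusted p = 0.000662).

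The same interval without Torin1 was measured in libraries that share none with the comparison, F4 against F1. There 6540 genes were called (39.8% of those tested), 3565 higher (21.7%) and 2975 lower (18.1%). Of the 3565, 43 rose with Torin1 as well (1.21%, against 0.573% of all genes), which is 45.7% of the 94 that rose with it. Another 26 fell (0.729%, against 0.896%) and the rest were not called, and the median change of the 3565 with Torin1 was 0.00. Of the 2975, 73 fell with Torin1 as well (2.45%, against 0.896% of all genes), which is 49.7% of the 147. Another 8 rose (0.269%, against 0.573%), and the median of the 2975 was −0.09. The 73 were 36 with total counts, and between 27 and 122 with a library left out (27 without F4T replicate 2, 30 and 38 without F1T replicates 1 and 2, 37 without F1T replicate 3, 34 without F4T replicate 3 and 122 without F1 replicate 1). The 43 were 23 without F1T replicate 1 and 28 without F1T replicate 2 or F4T replicate 2 or 3.

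The difference of the 2 changes, (F4T minus F1T) minus (F4 minus F1), was itself tested, and 3950 genes (24.1%) were called. With Torin1 the change was more positive for 1400 of them (8.53%) and more negative for 2550 (15.5%). The falling EGR genes were not among them: EGR1 changed by −2.32 with and −3.13 without Torin1 (difference 0.81, SE 0.52, adjusted p = 0.303), and EGR3 by −4.55 and −3.37 (−1.19, SE 0.52, adjusted p = 0.0979). FOSB, DUSP5 and JUND were not called either (−0.57, SE 0.44; −0.76, SE 0.40; and 0.04, SE 0.16). FOSL2 was called: it fell by 1.02 with Torin1, while without it the means were 5.43 at 1 h and 9.18 CPM at 4 h, a rise of 0.76 (difference −1.78, SE 0.33, adjusted p = 0.000115). H4C14 rose by 1.32 with and 0.76 without Torin1 (0.56, SE 0.30, adjusted p = 0.206).

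The change of TXNIP was larger with Torin1. Without it the level was 15.9 ± 2.94 CPM at 1 h and 19.2 ± 3.11 CPM at 4 h (SD, n = 3; 0.27, not called), against 12.7 ± 3.30 and 60.6 ± 1.93 CPM with it, and the difference was 1.99 (SE 0.23, adjusted p = 1.71e-07). The difference was 1.70 for ARRDC3 (SE 0.33, adjusted p = 0.000205). For ARRDC4, not called with Torin1, it was 1.95 (SE 0.16, adjusted p = 1.66e-10), since without Torin1 it fell by 1.74. That fall was from 133 ± 15.3 CPM in F1 to 39.9 ± 5.29 CPM in F4. With Torin1 ARRDC4 was below this 4 h level at both times, at 23.0 and 26.6 CPM.

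Of the cytoskeletal genes, VCL and CNN2 were not called without Torin1. VCL was at 123 ± 8.06 and 125 ± 7.23 CPM in F1 and F4 (difference 0.96, SE 0.11, adjusted p = 6.15e-08), and CNN2 at 60.1 ± 7.21 and 58.0 ± 4.29 CPM (0.99, SE 0.15, adjusted p = 1.10e-05). CNN2 with Torin1 was at 28.4 CPM at 1 h and 54.2 CPM at 4 h. SKIL was at 26.3 ± 2.41 and 26.0 ± 6.42 CPM without Torin1 (1.37, SE 0.20, adjusted p = 5.80e-06). KLF10 and RELB turned: they rose with Torin1 and fell without it by 0.90 and 1.41, with differences of 1.87 (SE 0.25, adjusted p = 1.79e-05) and 2.55 (SE 0.31, adjusted p = 1.48e-07). SMAD7, SMAD6 and ID3 rose in both, by 0.87, 0.73 and 0.74 without Torin1, and their differences were not called, though that of SMAD7 (0.51, SE 0.21, adjusted p = 0.0728) was called with DESeq2 size factors (adjusted p = 0.0477), total counts (adjusted p = 0.0469), the DESeq2 test (adjusted p = 0.0428), a minimum count of 30 or F1 replicate 3 left out, and that of SMAD6 without F1 replicate 1 (adjusted p = 0.0206). Of the 12 ID and BMP feedback genes, 4 had a called difference: ID4 (1.00, SE 0.16), SMAD9 (0.90, SE 0.18, adjusted p = 0.000347, with a change of 0.07 without Torin1), HEY1 (0.41, SE 0.11) and HES1 (0.60, SE 0.16).

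The metallothioneins and UBTF rose less with Torin1. MT1X went from 3.44 ± 1.46 to 74.3 ± 3.75 CPM without it (4.42) against 1.83 with it, a difference of −2.59 (SE 0.30, adjusted p = 6.54e-08), and MT2A differed by −2.77 (SE 0.22, adjusted p = 8.15e-11). UBTF rose by 1.88 without and 0.57 with Torin1 (−1.31, SE 0.12, adjusted p = 1.45e-09). Among genes with a called difference and a mean of at least 5 CPM, the 5 most negative differences were those of CHMP6, TTC5, TUBGCP3, SNPH and ZNF619, which rose by 3.33 to 4.00 without Torin1 and were not called with it. CHMP6 was at 1.83 ± 0.444 CPM in F1 and 29.4 ± 2.35 CPM in F4 (SD, n = 3). With Torin1 it was already at 22.7 ± 1.98 CPM in starved cells, and at 27.3 ± 1.29 and 34.8 ± 2.18 CPM in F1T and F4T. TTC5 was at 37.2, 35.7 and 32.0 CPM in F1T and at 43.4, 33.7 and 36.2 CPM in F4T, with overlapping values (difference −3.63, SE 0.22, adjusted p = 1.60e-13).

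**Figure D4:**
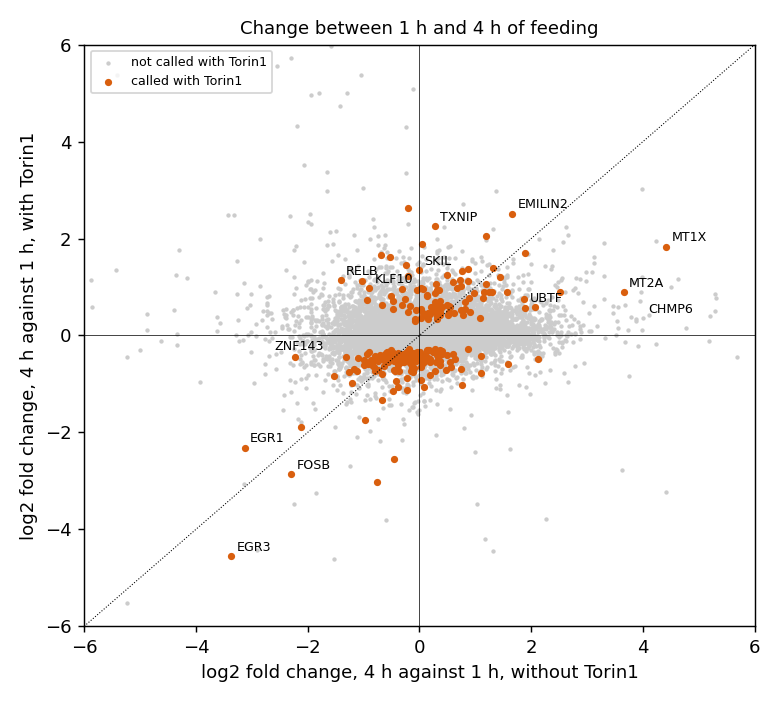
Log2 change from 1 h to 4 h of feeding without Torin1 (horizontal axis) and with it (vertical axis) for all genes tested, with genes called with Torin1 in colour and the line of equal change dotted; 25 genes lie outside the axes, which end at 6 in each direction. EGR1, EGR3 and FOSB lie near the line, TXNIP and SKIL near the vertical axis, and MT1X and MT2A below the line.

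Genes that respond to the first hour of feeding were chosen in libraries outside the comparison, F1 against S, where 106 genes were called (0.646%), 79 higher (0.481%) and 27 lower (0.164%). Of the 79, with Torin1 between 1 h and 4 h, 5 fell (EGR3, FOSB, EGR1, PLAGL2 and PPRC1; 6.33%, against 0.896% of all genes), 4 rose (HEY1, H4C8, H4C14 and MT1X; 5.06%, against 0.573%) and 70 were not called, with a median of −0.03. The 70 count some copies with identical values as separate genes, namely H3C14 and H3C15 and a set of genes with no symbol. The 79 were chosen without Torin1, and not all of them had risen at 1 h with it. From starved cells to 1 h with Torin1 (F1T minus ST), 66 of all genes were called. There EGR3, FOSB, EGR1, PLAGL2 and PPRC1 changed by 4.87, 3.30, 2.89, 0.34 and 0.24. HEY1, H4C8, H4C14 and MT1X changed by 0.28, −0.85, −0.30 and 1.43. A gene among the 70 is therefore not shown to have kept an early rise. The count of 5 was 8 without F1 replicate 1 and 4 without F4T replicate 2. PLAGL2, a zinc finger factor, and PPRC1, a coactivator of mitochondrial biogenesis, fell by 0.50 (SE 0.10) and 0.43 (SE 0.08). Of the 27 lower genes, TXNIP and HOXB2 rose (7.41%, against 0.573% of all genes) and LRIG1 fell (3.7%, against 0.896%). The other 24 were not called, and the median of the 27 was 0.16. Leaving out a library gave 1 to 3 in place of the 2 that rose.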

How the data were processed

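RNA was measured by RNA sequencing of total RNA extracted with TRIzol and treated with DNase, per the labels' protocols. The deposited gene table holds expected counts, estimated per gene by RSEM after STAR alignment, per the submitters' processing notes, which also name DESeq2, all without versions. The labels name a nematode genome build while the identifiers are human Ensembl identifiers, and the sources used here do not say which human build, annotation and strand setting were used. Antisense genes and families with near-identical copies are therefore uncertain. Of the values 3.32% were not whole, and they were rounded. The deposited isoform table was not used here.

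Groups came from sample titles. Of 60623 genes, 16414 passed filterByExpr (minimum count 10). Counts were scaled by TMM and fitted with edgeR 4.0.16 (R 4.3.3, quasi-likelihood, robust) as 6 group means over 18 libraries, with 12 residual degrees of freedom, and p-values were adjusted by Benjamini-Hochberg over all genes tested. SE is the absolute log2 change divided by the square root of F. No 2 libraries within F1T or within F4T agreed within counting noise. The fit was tested on simulated data. Alternatives were other scalings, DESeq2 1.42.0, limma-voom (limma 3.58.1), other filters, only the groups compared, a replicate block and leaving out each library.

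The members and gene lists were chosen with earlier results of these data known. Genes are named if among the 15 largest called changes in each direction without overlap and with a mean of at least 5 CPM, the 5 largest called differences between the changes with and without Torin1 in each direction with the same mean, up to 4 called members a list and direction by p, or on a fixed list, with others named where a count is small. Promoters are from RefSeq (GRCh38.p14), where 85 of 105 named symbols were found.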

Additional observations from a re-analysis of the deposited data

Results flagged for a closer look

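For 48 of the named genes the change from 1 h to 4 h of feeding differed between cells with and without Torin1, by the test of the difference itself (edgeR, adjusted over all 16414 genes, 24.1% of which were called). Many of these genes were named because of this difference or of their change with Torin1. Their number is therefore not a share to set against 24.1%. Each value here is the log2 change with Torin1 minus that without it, 3 libraries a group. The sign of the difference was the same under all 20 alternatives run for each gene, and 39 of the 48 kept their call in all of them.

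A more positive change with Torin1 was found for 28 genes. Among those that rose with Torin1 these were TXNIP (1.99), ARRDC3 (1.70), RELB (2.55), ETV5 (2.14), KLF10 (1.87), SKIL (1.37), PMEPA1 (1.31), HOXD9 (1.27), HOXD10 (1.19), GATA3 (1.01), CNN2 (0.99), VCL (0.96), SMAD9 (0.90), EMILIN2 (0.85), TPM1 (0.78), FOXO1 (0.68), FLNA (0.67) and SAMD11 (0.51). Among those that fell with Torin1 these were IER2 (0.86), SLC39A10 (0.69) and XBP1 (0.55). Those not called with Torin1 were CDKN2D (2.34), ZNF143 (2.27), DNAJB1 (1.97), ARRDC4 (1.95), CCNG2 (1.55), HMGCS1 (0.71) and JUNB (0.62). CDKN2D and DNAJB1 fell without Torin1, from 33.4 and 382 CPM at 1 h to 7.43 and 86.7 CPM at 4 h. With Torin1 their 1 h means, 4.35 and 68.6 CPM, were already below those 4 h levels, as were those of ARRDC4 and JUNB. For CCNG2 and HMGCS1 the 1 h mean with Torin1 (34.6 and 110 CPM) was above the 4 h mean without it (23.7 and 105 CPM).

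A more negative change with Torin1 was found for 20 genes. Among those that rose with Torin1 these were MT2A (−2.77), MT1X (−2.59) and UBTF (−1.31). Among those that fell with it these were FOSL2 (−1.78), ENTREP2 (−1.13), GINS1 (−1.13), CCN1 (−0.95), DUSP8 (−0.67), CCND1 (−0.62), MXI1 (−0.46) and MCL1 (−0.35). Those not called with Torin1 were CHMP6 (−3.65), TTC5 (−3.63), TUBGCP3 (−3.38), SNPH (−3.24), ZNF619 (−3.02), NR1D1 (−2.23), PER2 (−1.39), MYC (−0.58) and CDKN1B (−0.40). The 9 genes whose call was lost under some alternatives were CCN1, CDKN1B, DUSP8, ENTREP2, JUNB, MCL1, MXI1, SAMD11 and SLC39A10.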

How the results depend on the processing

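Only 6 libraries carry the comparison, and precision is limited by their number and, for genes near 3 counts a library, by depth. Of the 74 named genes that were called, 34 held under every alternative, 38 lost the call with some library left out and 15 under another setting, and 0 changed sign. The 241 calls were 460 with the DESeq2 Wald test, 364 with no filter and 725 with only the groups compared, and 99 to 204 with a library left out; the 3950 called differences were 3456 to 4046. Sets followed from other libraries moved with the fit as well. Of the genes higher in F1 than S, 8 were lower with DESeq2 and 8 with no filter instead of 5 (4 to 8 when any single library was dropped), while the 2 that rose of those lower in F1 were 1 to 3. The 43 genes that rose in both were 69 with DESeq2 and 65 with limma-voom (23 to 56), and the 73 that fell in both were 36 with total counts, 142 with DESeq2 and 112 with no filter (27 to 122). The rising core histones numbered 7 with limma-voom and 7 with only the groups compared instead of 4 (2 to 3), and the rising HOX genes 13 with only the groups compared instead of 8 (1 to 5). With a library left out the counts of called genes were 5 to 7 for ID and BMP feedback, 4 to 5 for SRF, YAP and actin, 3 to 8 for immediate early transcription factors, 2 to 4 for ERK feedback and 1 to 7 for ribosome assembly.

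Same-numbered libraries of the 2 groups correlated at 0.33, 0.00 and 0.12 in their deviations from the group means, and not every library correlated best with its own number, so the numbers were not taken to pair the libraries. Over all groups the median correlation was 0.073 for 45 pairs with the same number (−0.26 to 0.36). It was −0.035 for 90 pairs with different numbers (−0.27 to 0.27). Whether same-numbered libraries shared a batch was not tested. With a replicate block 374 genes were called instead of 241, and 123 instead of 73 of the genes that fell in both.

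Signs turned only for genes that were not called. With a library left out the log2 change ranged from −0.68 to 0.41 for DUSP6, −0.0023 to 0.26 for ID1, −0.012 to 0.70 for IER3, −0.039 to 0.12 for SPRY2, −0.0039 to 0.18 for TTC5 and −0.13 to 0.015 for TUBGCP3, which was also 0.0078 with total counts. The causes were not tested.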

Other observations

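HOX genes, which record the position of a cell along the body axis, were looked at after their values had been seen. Of 37 tested (39 listed), 8 rose between 1 h and 4 h of feeding with Torin1, 0 fell and 29 were not called, with a median log2 change of 0.37 against −0.02 over all genes tested; at an unadjusted p under 0.05, 22 were higher (59.5%) and 0 lower, against 5.22% and 8.93% of all genes tested. The share called higher was 21.6%, against 0.573% of all genes. The 8 were HOXA10, HOXA11, HOXA13, HOXB2, HOXB6, HOXD9, HOXD10 and HOXD13. HOXD10 was at 19.3, 16.98 and 19.1 CPM at 1 h and at 25.4, 32.5 and 33.0 CPM at 4 h (0.71, SE 0.15, edgeR adjusted p = 0.0105). HOXA11 was at 24.5, 19.4 and 23.3 CPM at 1 h and at 33.2, 33.6 and 34.8 CPM at 4 h (0.60, SE 0.11, edgeR adjusted p = 0.00249), and its call held under every alternative. In starved cells with Torin1, HOXA11 was at 29.0 ± 0.626 CPM and HOXD10 at 22.6 ± 5.38 CPM (SD, n = 3), above their 1 h means, with neither difference called. Their 4 h levels were not called against starved cells either (edgeR adjusted p = 0.371 and 0.158). That of HOXD9 was not called (edgeR adjusted p = 0.129), and that of HOXA10 was called higher (edgeR adjusted p = 0.0193). Without F4T replicate 2, the library with the fibroblast collagens, 1 HOX gene was called, and 2 to 5 without any other single library of the 2 groups.

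Among markers of the kidney lineage, GATA3 was at 6.03 ± 0.457 CPM at 1 h and 10.2 ± 1.45 CPM at 4 h (SD, n = 3; 0.75, SE 0.20, edgeR adjusted p = 0.0489), and EYA1, a transcriptional coactivator, at 20.1 ± 2.27 and 12.2 ± 0.997 CPM (−0.72, SE 0.16, edgeR adjusted p = 0.0163). The call of GATA3 was lost with any of the 6 libraries left out and that of EYA1 with 3 of them.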
